A study of Mus musculus with 24 samples.

Results

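The genes described are 9 enzymes of cholesterol synthesis, Hmgcs1, Mvd, Idi1, Fdps, Sqle, Lss, Cyp51, Nsdhl and Hsd17b7, found by symbol among the 27179 genes of a table of raw counts. All 9 were present and all 9 were among the 17824 genes that passed the filter on low counts. RNA was sequenced from whole visceral (perigonadal) fat of mice aged 27 to 33 weeks, in 24 libraries. The 6 groups of 4 libraries were females and males of PpargFoxp3cre mice (conditional Pparg knockouts), TbetFoxp3cre mice (conditional Tbet knockouts) and Foxp3cre control mice. Every mouse, controls included, carried the Foxp3 Cre; no group without it was analysed here. Foxp3 drives Cre in regulatory T cells, a sparse population of fat, so the tissue measured was mostly cells in which the targeted gene was left intact. The titles place 2 libraries of each group in each of 2 batches, without saying what a batch is. Below, replicates 1 and 3 are batch 1 and replicates 2 and 4 batch 2. The titles number the libraries of a group 1 and 2 in each batch. Replicates 1 and 2 therefore share a number across batches, and so do replicates 3 and 4.

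Cholesterol synthesis starts from acetyl-CoA. Hmgcs1, the cytosolic HMG-CoA synthase, makes the HMG-CoA from which mevalonate is formed. Mvd, mevalonate diphosphate decarboxylase, and Idi1, isopentenyl diphosphate isomerase, make the isoprene units that Fdps, farnesyl diphosphate synthase, joins. Sqle, squalene epoxidase, and Lss, lanosterol synthase, form the sterol ring. Cyp51, lanosterol demethylase, Nsdhl, a sterol dehydrogenase, and Hsd17b7, a sterol ketone reductase that also acts on estrone, trim it towards cholesterol. The genes are classic targets of SREBP-2 (Srebf2), a membrane-bound transcription factor released when sterols run low. Adipocytes store much of the body's free cholesterol, and the related factor SREBP-1 (Srebf1) governs fatty acid synthesis.

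SREBP-2 binds sterol regulatory elements and usually acts with NF-Y, which binds CCAAT boxes, and with Sp1, which binds GC boxes, so the 250 bases before each transcript start in the RefSeq promoter table were read for these motifs on both strands. RefSeq promoters on GRCm38.p6 were available for 7 of the 9 genes; Fdps and Sqle were not among them. For Lss and Hsd17b7 that start lies inside the annotated gene, so the last 40 and 37 bases of their windows, which hold 1 CCAAT box of Hsd17b7, are within it. A sterol regulatory element, spelled TCACNCCAC, was found in Hmgcs1 alone of the 7, at 137 to 129 bases before the start, and in 1.22% of 27025 genes. Other spellings of the element were not searched, so a window without a match is not shown to lack a sterol element. A CCAAT box was found in 7 of 7, against 37.5% of genes, and a GC box, GGGCGG, in 7 of 7, against 35.4% of genes. Of 10 other cholesterol synthesis enzymes, 9 (90%) had a CCAAT box, 8 (80%) a GC box and 0 this sterol element, so the boxes are not particular to the 7. These matches are letters in a window and say nothing of binding; the motifs do not overlap. The 4 shown are Hmgcs1, whose levels in Tbet knockout females lay within the control range, and 3 that fell there: Mvd, Cyp51 and Nsdhl. Capitals mark the motifs or their reverse complements, and each sequence runs 5′ to 3′ on the gene's strand up to the base before the start.
Hmgcs1: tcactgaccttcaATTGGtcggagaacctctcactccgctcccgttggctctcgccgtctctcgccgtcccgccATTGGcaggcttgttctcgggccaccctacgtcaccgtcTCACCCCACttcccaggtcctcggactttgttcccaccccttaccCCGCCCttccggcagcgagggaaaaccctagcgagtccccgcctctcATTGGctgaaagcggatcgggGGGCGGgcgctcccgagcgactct
Mvd: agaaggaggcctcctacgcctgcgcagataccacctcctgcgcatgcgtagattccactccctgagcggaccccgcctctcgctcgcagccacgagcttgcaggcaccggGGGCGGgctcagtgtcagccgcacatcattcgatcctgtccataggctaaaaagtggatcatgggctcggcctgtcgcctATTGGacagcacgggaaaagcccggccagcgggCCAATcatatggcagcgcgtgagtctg
Cyp51: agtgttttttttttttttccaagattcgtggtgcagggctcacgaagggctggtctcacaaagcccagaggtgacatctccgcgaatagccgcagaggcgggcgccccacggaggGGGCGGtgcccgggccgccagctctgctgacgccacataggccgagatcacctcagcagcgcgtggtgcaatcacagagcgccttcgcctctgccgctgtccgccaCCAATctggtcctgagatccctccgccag
Nsdhl: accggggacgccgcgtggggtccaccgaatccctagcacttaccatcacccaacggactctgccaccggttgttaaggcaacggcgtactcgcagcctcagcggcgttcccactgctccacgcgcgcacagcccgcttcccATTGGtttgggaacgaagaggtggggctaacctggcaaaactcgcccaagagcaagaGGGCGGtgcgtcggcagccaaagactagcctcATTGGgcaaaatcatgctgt
The windows lie at chr13:119690101-119690350 (plus strand) for Hmgcs1, chr8:122443423-122443672 (minus strand) for Mvd, chr5:4104698-4104947 (minus strand) for Cyp51 and chrX:72918271-72918520 (plus strand) for Nsdhl.

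Libraries held 8345575 to 31022845 counts, and the 2 shallowest were Tbet knockout female replicates 2 and 4, both of batch 2. Pparg ranged from 64.8 to 362 CPM and Tbx21, which encodes T-bet, from 0.0751 to 2.65 CPM over the 24 libraries, and the ranges of targeted and control groups overlapped in both sexes, so whole fat does not check the deletions. Pparg was 129 to 269 CPM in Pparg knockout females, against 64.8 to 362 CPM in control females, and Tbx21 was 0.659 to 2.64 CPM in Tbet knockout females, against 0.441 to 1.27 CPM in control females. Foxp3 had 1 to 39 counts a library. The 10 adipocyte markers (Adipoq, Plin1 and others) were detected in every library, as the tissue label requires, and so were the 10 macrophage, 10 lymphocyte, 6 mesothelium and 8 endothelium markers. Of 10 epithelium markers, 6 were detected in every library and 4 (Cdh1, Cldn4, Cldn7 and Esrp1) had 0 counts in 1 to 4 libraries. Their sum exceeded 150 CPM in 8 libraries and reached 1420 CPM in control female replicate 1, which also had the lowest adipocyte sum, 8950 CPM. Krt19 is on both the epithelium and the mesothelium list, so these sums are not separate, and that library also had the highest mesothelium sum, 791 CPM. The source name of that library gives batch 2; its title, which was followed, gives batch 1. In whole tissue, fewer cells of a type and less RNA per cell cannot be told apart.

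The 9 enzymes differed widely in level. On the deposited log2 FPKM scale, which corrects for gene length, Hmgcs1 was the highest, with a mean of 6.11 ± 0.73 (SD over 24 libraries), and it exceeded Nsdhl, the next at 4.64 ± 0.62, in 20 of 24 libraries. Fdps followed at 3.95 ± 0.63. Mvd (3.44 ± 0.67), Cyp51 (3.36 ± 0.62), Sqle (3.30 ± 0.59) and Lss (3.29 ± 0.80) were within their spread of one another, with gaps between neighbours of 0.01 to 0.08. Idi1 stood at 3.03 ± 0.48. Hsd17b7 was the lowest at 1.46 ± 0.64, below Idi1 in all 24 libraries. The remaining levels are TMM-scaled CPM (counts set to a common library size), which compare libraries and not genes.

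**Figure D1:**
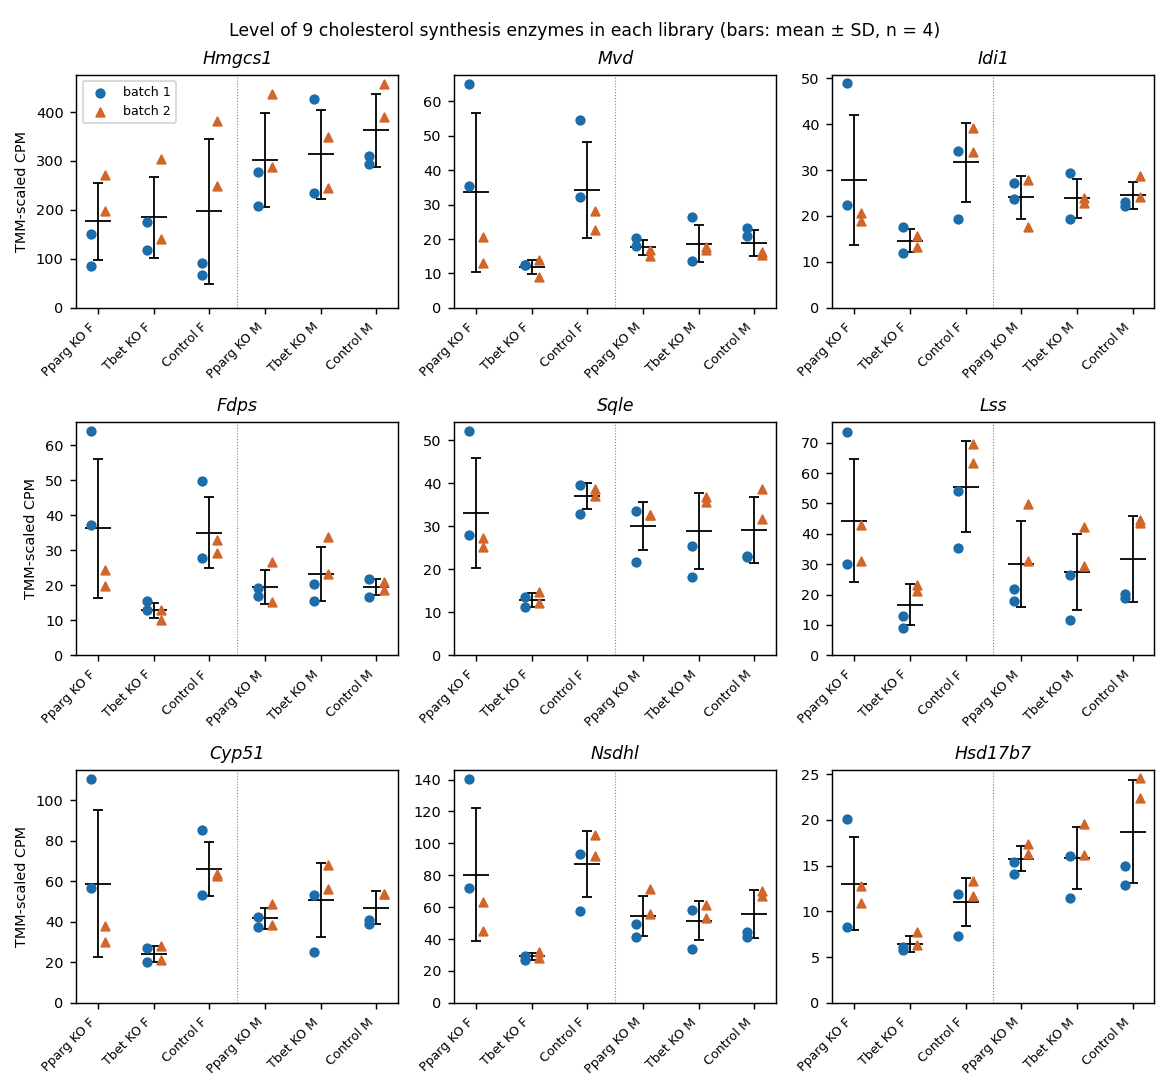
Each panel plots 1 enzyme: the vertical axis is TMM-scaled CPM from 0, the horizontal axis the 6 groups (F, female; M, male), circles are batch 1 libraries, triangles batch 2 libraries, and bars the mean ± SD of 4 libraries. Tbet knockout females have the lowest mean in 8 of 9 panels, Hmgcs1 being the exception, and Pparg knockout female replicate 3 is the highest of the 24 libraries in 7 panels.

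Whether T-bet in regulatory T cells bears on the fat was asked by setting each Tbet knockout group against controls of the same sex. In females, 7 of the 9 enzymes fell: Mvd, Idi1, Fdps, Sqle, Lss, Cyp51 and Nsdhl. Their log2 fold changes ran from -1.80 to -1.12, and each of the 7 had all 4 Tbet knockout libraries below all 4 control libraries. Over all genes tested, 1.22% were called in this comparison (0.640% lower), and 2.14% lay without overlap in this direction. The median log2 fold change was -1.46 over the 9 enzymes and -0.04 over all genes. The 9 enzymes were chosen with earlier results of these data known, so their distance from all genes is a description and not a test. Calls throughout are Benjamini-Hochberg adjusted p under 0.05 by edgeR's quasi-likelihood F test over all genes tested. Shares of all genes called come from edgeR fits to all 24 libraries. None was computed for DESeq2, limma, single batches, omissions or other settings, so those counts have no background.

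Sqle, which commits squalene to sterols, gave the clearest separation. It had 11.2, 12.1, 13.6 and 14.7 CPM in Tbet knockout female replicates 1 to 4, against 39.7, 37.1, 32.8 and 38.7 CPM in control females. The 4 Tbet knockout female libraries were the 4 lowest of all 24. Its log2 fold change was -1.52 ± 0.24 (SE; adjusted p = 0.0051), and it was -1.54 within batch 1 and -1.49 within batch 2. It was the one enzyme whose call held whichever of the 24 libraries was left out.

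The isoprenoid enzymes fell by similar amounts. Mvd had 12.4, 13.8, 12.3 and 8.99 CPM in Tbet knockout females, against 32.1, 28.1, 54.5 and 22.5 CPM in control females. Its log2 fold change was -1.48 ± 0.29 (adjusted p = 0.022). Control replicate 3 was far above its group, and without that library the call was lost (-1.29, adjusted p = 0.058). The Mvd call was also lost without Tbet knockout female replicate 1, 3 or 4 (adjusted p = 0.098, 0.097 and 0.053). Fdps, the branch point to farnesylated proteins, had 12.97, 10.2, 15.6 and 12.8 CPM in Tbet knockout females, against 27.8, 32.9, 49.8 and 29.3 CPM in control females. The log2 fold change was -1.44 ± 0.31 (adjusted p = 0.031). Idi1 had 11.9, 15.6, 17.7 and 13.3 CPM in Tbet knockout females, against 19.4, 39.2, 34.2 and 34.0 CPM in control females. Its groups came closest, at 17.7 in the highest knockout and 19.4 CPM in the lowest control, and its change was the smallest of the called ones at -1.12 ± 0.27 (adjusted p = 0.045). The Idi1 call was lost in 20 of 24 omissions of a single library, libraries in neither group among them, with an adjusted p of up to 0.147.

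Among the sterol enzymes, Lss changed most. It had 9.04, 21.2, 12.9 and 23.2 CPM in Tbet knockout females, against 35.2, 69.6, 54.0 and 63.3 CPM in control females, which gave -1.80 ± 0.34 on the log2 scale (adjusted p = 0.019). In both groups the batch 2 libraries were the higher ones. Nsdhl, an X-linked gene, had 27.1, 28.1, 29.6 and 32.02 CPM in Tbet knockout females, against 57.5, 106, 93.5 and 92.2 CPM in control females. Its log2 fold change was -1.57 ± 0.29 (adjusted p = 0.015), and the 4 knockout libraries were again the 4 lowest of 24. Cyp51 had 27.0, 28.1, 20.02 and 21.0 CPM in Tbet knockout females, against 53.0, 62.5, 85.1 and 63.5 CPM in control females. The log2 fold change was -1.46 ± 0.33 (adjusted p = 0.038), with the highest knockout library at less than the lowest control.

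A pair of enzymes were not called. Hsd17b7 had 5.74, 7.70, 6.08 and 6.36 CPM in Tbet knockout females, against 7.25, 13.3, 11.9 and 11.7 CPM in control females. The groups overlapped through control replicate 1 alone, and the log2 fold change was -0.76 ± 0.23 (adjusted p = 0.11). Hmgcs1 had 118, 304, 176 and 141 CPM in Tbet knockout females, against 66.9, 248, 90.6 and 382 CPM in control females. Its 4 knockout libraries lay within the range of the controls, and the log2 fold change was 0.07 ± 0.36 (adjusted p = 0.95). The sign of that Hmgcs1 value differed between batches, at 0.90 within batch 1 and -0.50 within batch 2, and the difference was not called (-1.40 ± 0.57, adjusted p = 0.21); 0.426% of genes were called for it.

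The number of calls depended on single libraries. Besides Idi1, the call was lost for Cyp51 in 9 of 24 omissions, Fdps in 7, Mvd in 4, and Lss and Nsdhl in 2 each. Leaving out Tbet knockout female replicate 1, 2, 3 or 4 left 1, 4, 1 or 3 calls, and leaving out control female replicate 2, 3 or 4 left 4, 3 or 4 calls, while the median stayed between -1.54 and -1.29 over all 24 omissions. Within batches, 2 enzymes (Mvd and Sqle) were called in batch 1 and 5 (Idi1, Sqle, Lss, Cyp51 and Nsdhl) in batch 2, each from 2 libraries a group. Within batch 1 the median was -1.44, and within batch 2 it was -1.36. Without a batch term 2 enzymes were called, and with no filter on low counts 5, Idi1 and Cyp51 being lost.

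Cell type marker sums were also set side by side for these groups, and only the macrophage sums did not overlap. The macrophage sum was 1310 to 1830 CPM in Tbet knockout females, against 403 to 1170 CPM in control females, and the adipocyte sum was 33400 to 42100 CPM in Tbet knockout females, against 8950 to 41700 CPM in control females. The epithelium sum was 51.6 to 149 CPM in Tbet knockout females, against 43 to 1420 CPM in control females. Lymphocyte markers summed to 34.4 to 78.1 CPM in Tbet knockout females, against 10.3 to 41.4 CPM in control females, mesothelium markers to 292 to 617 CPM in Tbet knockouts, against 232 to 791 CPM in controls, and endothelium markers to 899 to 1390 CPM in Tbet knockouts, against 446 to 1190 CPM in controls. No marker on these 6 lists was called. All 10 macrophage, 10 lymphocyte and 8 endothelium markers had positive values, with median log2 fold changes of 0.84, 0.98 and 0.53. So did 8 of 10 adipocyte and 4 of 6 mesothelium markers, while all 10 epithelium markers had negative values. An unadjusted p under 0.05 was reached by 8 macrophage, 5 epithelium, 3 adipocyte, 3 endothelium, 2 lymphocyte and 0 mesothelium markers. It was reached by 3088 of the 17824 genes tested. Without the 8 libraries over 150 CPM of epithelium markers, control female replicate 1 among them, 7 enzymes were called and the median was -1.56. The part of the other cell types in the result was not tested.

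The rest of the pathway moved less uniformly, but the enzymes described here were chosen with earlier results of these data known. That choice can itself produce such a contrast, so no conclusion about the pathway is drawn from it. Of 13 other enzymes of cholesterol synthesis, 3 fell in Tbet knockout females and none rose, with a median log2 fold change of -0.39. They were Acat2, the cytosolic thiolase at the pathway's entry (-1.50 ± 0.29, adjusted p = 0.020), Pmvk, phosphomevalonate kinase (-1.23 ± 0.28, adjusted p = 0.041), and Dhcr7, the last reductase (-0.9996 ± 0.23, adjusted p = 0.039). Acat2 reads may be shared with its close copy Acat3.

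**Figure D2:**
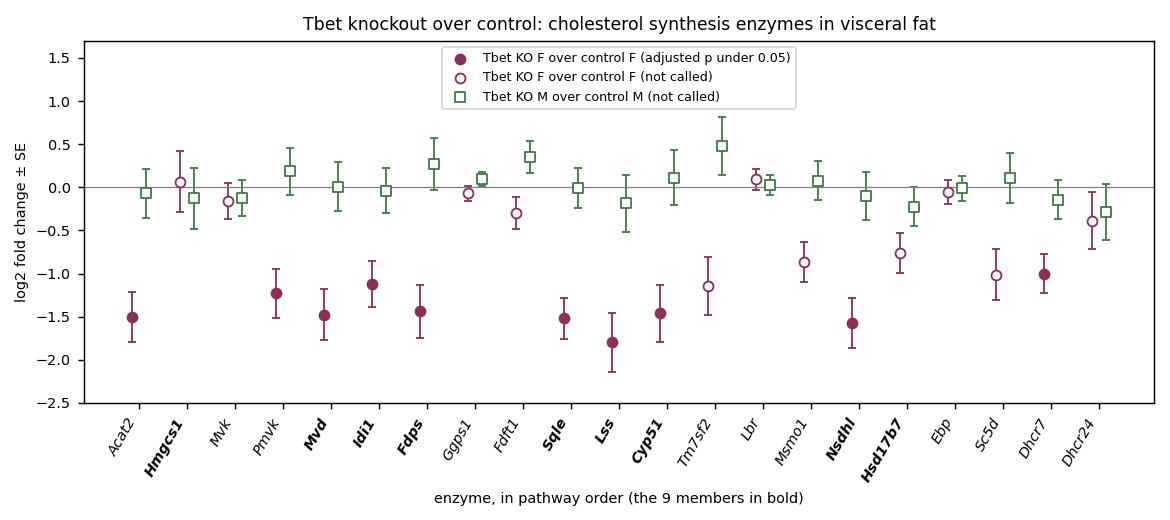
The vertical axis is the log2 fold change ± SE and the horizontal axis enzymes in pathway order, the 9 described here in bold; circles are Tbet knockout over control females, squares Tbet knockout over control males, and filled symbols have an adjusted p under 0.05. In females Acat2, Pmvk, Mvd, Idi1, Fdps, Sqle, Lss, Cyp51, Nsdhl and Dhcr7 are filled, between -1.80 and -0.9996, while no enzyme is filled in males.

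Of 10 sterol regulation genes, 1 fell in Tbet knockout females: Insig1, an SREBP target whose protein holds SREBP in the endoplasmic reticulum. It averaged 98.2 ± 25.1 CPM in Tbet knockout females and 353 ± 161 CPM in control females (log2 fold change -1.80 ± 0.42, adjusted p = 0.042). Srebf2 itself was at -0.30 ± 0.17 (adjusted p = 0.38). Fatty acid synthesis genes differed by more: 8 of 8 fell, with a median of -2.93. The 4 with the smallest adjusted p were Elovl6, a fatty acid elongase (-4.32 ± 0.60), Acly, which makes cytosolic acetyl-CoA (-3.28 ± 0.48), Acaca, acetyl-CoA carboxylase (-2.66 ± 0.40), and malic enzyme Me1 (-2.71 ± 0.42), each with an adjusted p of 0.0039 or 0.0045.

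In males none of the 9 enzymes was called between Tbet knockouts and controls, where 0.00561% of all genes were called. The groups overlapped for all 9 enzymes, none had an unadjusted p under 0.05, and DESeq2 and limma also called none. The log2 fold changes ran from -0.22 for Hsd17b7 to 0.27 for Fdps, each with an SE of 0.23 to 0.36, and their median was -0.04. Sqle, the most separated enzyme in females, had 18.1, 36.7, 25.5 and 35.6 CPM in Tbet knockout males, against 22.8, 38.7, 23.1 and 31.7 CPM in control males, a log2 fold change of -0.01 ± 0.23. Fdps had 15.5, 23.4, 20.5 and 33.8 CPM in Tbet knockout males, against 21.7, 20.8, 16.5 and 18.7 CPM in control males, with replicate 4 the highest. Tbet knockout male replicate 1 was the lowest of its group for all 9 enzymes. None of the 13 other pathway enzymes, the 10 sterol regulation genes or the 8 fatty acid synthesis genes was called in males.

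The test of the difference between the male and the female effect of Tbet knockout called none of the 9, so the enzymes are not shown to respond differently in the sexes. Of all genes, 0.00561% were called. The difference, male minus female, was positive for 8 of 9 enzymes with a median of 1.49, and 7 had an unadjusted p under 0.05. Sqle had the smallest adjusted p, at 1.51 ± 0.33 (adjusted p = 0.14), and Fdps the largest difference, at 1.71 ± 0.43 (adjusted p = 0.23). Hmgcs1 was at -0.20 ± 0.50 (adjusted p = 0.92). DESeq2 called 5 of the 9, and a fit to the 4 groups concerned called 2, with no share of all genes computed for either. Leaving out Pparg knockout female replicate 3, which enters the shared estimate of the spread, gave 1 call.

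The Pparg knockout comparisons asked the same of Pparg, the nuclear receptor on which fat-resident regulatory T cells rely. None of the 9 enzymes was called in females, where 0.0168% of all genes were, nor in males, where the share was 0%. No enzyme had an unadjusted p under 0.05 in either sex, and DESeq2 and limma called none. In females the log2 fold changes ran from -0.21 for Idi1 to 0.27 for Hsd17b7, with SEs of 0.23 to 0.36. In males they ran from -0.27 for Hmgcs1 to 0.06 for Sqle, with SEs of 0.23 to 0.35. The Tbet and Pparg comparisons share their control libraries.

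Pparg knockout females had the largest SD of the 6 groups for 7 of the 9 enzymes, all but Hmgcs1 and Hsd17b7. Nsdhl had 71.8, 45.3, 141 and 63.3 CPM in Pparg knockout females, against 57.5, 106, 93.5 and 92.2 CPM in control females, and Cyp51 had 56.5, 30.2, 111 and 37.8 CPM in Pparg knockout females, against 53.0, 62.5, 85.1 and 63.5 CPM in control females. Idi1 had 22.5, 20.7, 49.0 and 19.0 CPM in Pparg knockout females, against 19.4, 39.2, 34.2 and 34.0 CPM in control females. In each case Pparg knockout replicate 3 stood highest, and it was the highest of its group for 8 of the 9 enzymes. That library had an epithelium sum of 480 CPM, a macrophage sum of 780 CPM, the lowest of its group, and an adipocyte sum of 30200 CPM within the range of the others. Without it the median log2 fold change in females was -0.52, against -0.10 with it, and still no enzyme was called.

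The female Pparg effect differed in sign between batches for all 9 enzymes. Nsdhl had a log2 fold change of 0.49 within batch 1 and -0.86 within batch 2, and Idi1 0.41 and -0.88. The effects ran from 0.15 to 0.59 in batch 1 and from -0.89 to -0.07 in batch 2. Tested directly, the difference, batch 2 minus batch 1, had a median of -1.01; none was called (smallest adjusted p = 0.25, for Nsdhl at -1.36 ± 0.43), where 0.0168% of all genes were. An unadjusted p under 0.05 was reached by 3 enzymes, and DESeq2 and limma called none. Without Pparg knockout female replicate 3 the median was -0.44, and leaving out control female replicate 3 gave 1 call. In males no enzyme was called for either knockout (0.0168% of genes for Pparg, 0.0673% for Tbet).

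**Figure D3:**
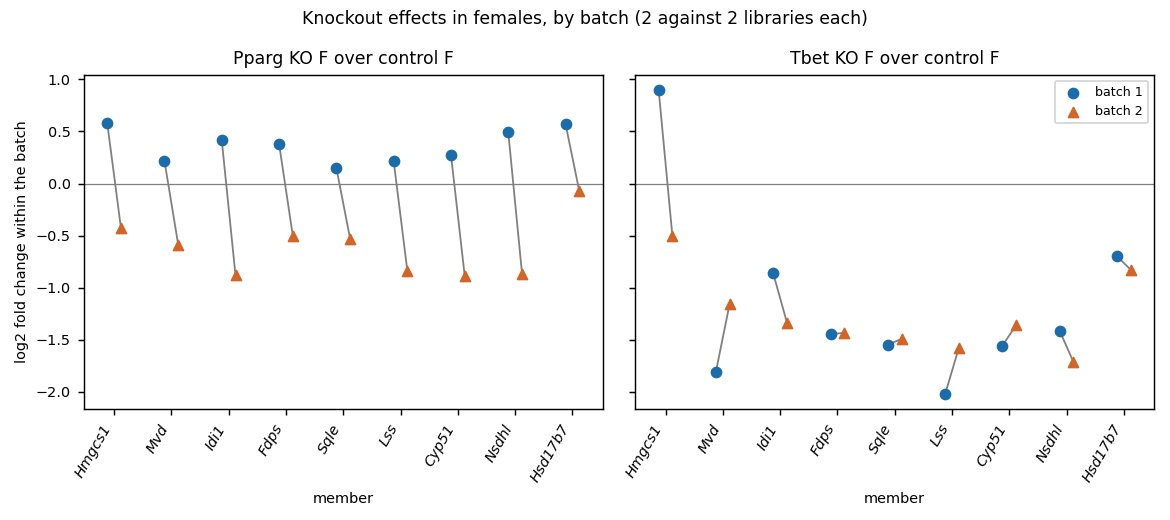
The vertical axis is the log2 fold change of knockout over control females within a batch (2 against 2 libraries), for the 9 enzymes along the horizontal axis; circles are batch 1, triangles batch 2, and lines join the same enzyme. The left panel (Pparg) has every circle above 0 and every triangle below it, while the right panel (Tbet) has both below 0 for 8 enzymes and Hmgcs1 at 0.90 in batch 1 and -0.50 in batch 2.

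Set directly against Pparg knockout females, Tbet knockout females had lower values for 8 of 9 enzymes, but none was called, and none of all genes was (0%). The median was -1.37, 8 enzymes had an unadjusted p under 0.05, and DESeq2 called 7 and limma on log2 FPKM 1. The 0% belongs to edgeR, and the shares of all genes called by DESeq2 and limma were not computed. Sqle came nearest, with 11.2, 12.1, 13.6 and 14.7 CPM in Tbet knockout females against 28.0, 25.1, 52.2 and 27.3 CPM in Pparg knockout females (-1.38 ± 0.24, adjusted p = 0.059). The groups did not overlap for 7 of 9 enzymes, against 1.05% of all genes in this direction. Mvd overlapped, at 12.4, 13.8, 12.3 and 8.99 CPM in Tbet knockout females and 35.5, 12.9, 65.0 and 20.7 CPM in Pparg knockout females. Leaving out Pparg knockout female replicate 2 gave 5 calls, and leaving out Pparg knockout female replicate 4, Tbet knockout male replicate 1 or 3, or control female replicate 1 gave 1 call each. Without Pparg knockout female replicate 3 the median was -0.97. The median was -1.82 within batch 1 and -0.74 within batch 2. In males no enzyme was called (0% of genes), none had an unadjusted p under 0.05, DESeq2 and limma called none, and the median was -0.0041.

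The 9 enzymes were not alike in sex. Among controls, Hmgcs1 and Hsd17b7 were higher in males and Mvd and Fdps lower, where 27.2% of all genes were called (13.6% in each direction), a background against which 4 of 9 is to be read. Hmgcs1 had 311, 389, 294 and 456 CPM in control males, against 66.9, 248, 90.6 and 382 CPM in control females (1.05 ± 0.36, adjusted p = 0.037). The batch 1 females were the low ones, and the log2 fold change was 1.91 within batch 1 and 0.43 within batch 2. Hsd17b7 had 14.96, 22.4, 12.9 and 24.5 CPM in control males, against 7.25, 13.3, 11.9 and 11.7 CPM in control females (0.74 ± 0.23, adjusted p = 0.022). The groups overlapped at male replicate 3 and female replicate 2.

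Fdps and Mvd ran the other way. Fdps had 21.7, 20.8, 16.5 and 18.7 CPM in control males, against 27.8, 32.9, 49.8 and 29.3 CPM in control females, without overlap (-0.84 ± 0.30, adjusted p = 0.045), where 7.85% of genes lay without overlap in this direction. That call was lost in 15 of 24 omissions of a single library (adjusted p up to 0.163) and with a replicate block (-0.80, adjusted p = 0.061). Mvd had 20.9, 15.2, 23.1 and 16.1 CPM in control males, against 32.1, 28.1, 54.5 and 22.5 CPM in control females, with an overlap at male replicate 3 and female replicate 4 (-0.84 ± 0.29, adjusted p = 0.036). The other 5 enzymes were all at negative values, from -0.87 for Lss to -0.37 for Sqle, and were not called. Within batch 1 Hmgcs1 and Fdps were called, within batch 2 Hsd17b7 alone, and without a batch term 0. Leaving out control male replicate 1, 2, 3 or 4 left 1, 2, 1 or 0 calls, and control female replicate 1, 2 or 3 left 2, 2 or 1. Over the 24 omissions the call was lost for Mvd in 6, Hmgcs1 in 5 and Hsd17b7 in 2.

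Marker sums moved with sex too. The macrophage sum was 1440 to 2110 CPM in control males, against 403 to 1170 CPM in control females, and the endothelium sum 1380 to 2110 CPM in control males, against 446 to 1190 CPM in control females. The adipocyte sum was 25400 to 59400 CPM in control males, against 8950 to 41700 CPM in control females, and 9 of 10 macrophage, 5 of 8 endothelium and 3 of 10 adipocyte markers were called higher in males. The mesothelium sum was 65.7 to 397 CPM in control males, against 232 to 791 CPM in control females, and 1 of 6 of its markers was called lower. Their part in the sex differences was not tested. Of the 13 other pathway enzymes 3 were lower in control males (Acat2 -0.83, Fdft1, squalene synthase, -0.63, and Tm7sf2, a sterol reductase, -1.15) and none was higher. Fatty acid synthesis genes were lower for 7 of 8, with a median of -2.398.

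Pparg knockout males and females gave no call among the 9, where 8.77% of all genes were called. Their values still ran the way the controls' did, from -0.86 for Fdps to 0.83 for Hmgcs1, and 5 had an unadjusted p under 0.05. DESeq2 called 2 and limma none. The median was -0.49, with -1.09 within batch 1 and 0.23 within batch 2, and it was 0.016 without Pparg knockout female replicate 3. Leaving out Pparg knockout female replicate 2 gave 2 calls, and Pparg knockout female replicate 3 or male replicate 2 gave 1. Hmgcs1 had 277, 437, 209 and 287 CPM in Pparg knockout males, against 85.2, 198, 151 and 271 CPM in Pparg knockout females. The 2 groups overlapped at male replicate 3 and female replicate 4.

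In Tbet knockouts all 9 enzymes had positive values in males over females, and 3 were called higher: Hsd17b7, Sqle and Cyp51, where 9.31% of all genes were called (3.93% higher). Hsd17b7 had 11.4, 19.6, 16.1 and 16.2 CPM in Tbet knockout males, against 5.74, 7.70, 6.08 and 6.36 CPM in Tbet knockout females (1.28 ± 0.23, adjusted p = 0.0021), without overlap. Sqle had 18.1, 36.7, 25.5 and 35.6 CPM in Tbet knockout males, against 11.2, 12.1, 13.6 and 14.7 CPM in Tbet knockout females (1.14 ± 0.24, adjusted p = 0.0054), also without overlap; 4 of the 9 (Idi1, Sqle, Nsdhl and Hsd17b7) had no overlap, against 5.66% of genes in this direction. Cyp51 had 25.1, 56.3, 53.1 and 67.9 CPM in Tbet knockout males, against 27.0, 28.1, 20.02 and 21.0 CPM in Tbet knockout females (1.08 ± 0.33, adjusted p = 0.044). The Cyp51 groups overlapped through male replicate 1, the lowest of its group for every enzyme. The Cyp51 call was lost in 14 of 24 omissions of a single library (adjusted p up to 0.116) and with a replicate block (1.04, adjusted p = 0.061), while those of Hsd17b7 and Sqle held in all 24.

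The other 6 enzymes ran from 0.65 for Mvd to 0.87 for Fdps in that comparison, and each of the 9 had an unadjusted p under 0.05; the median was 0.86. DESeq2 called 5 of 9, and leaving out Pparg knockout female replicate 3, which is in neither group, gave 6. Within batch 1 none was called and within batch 2, 5. Of the 13 other pathway enzymes 3 were called, all higher in males, among them Pmvk (1.09 ± 0.28, adjusted p = 0.019) and Msmo1, a sterol methyl oxidase (1.12 ± 0.23, adjusted p = 0.0055). Of the 10 sterol regulation genes 2 were higher, among them the SREBP escort Scap (0.35 ± 0.10, adjusted p = 0.037), and of fatty acid synthesis genes Scd1, a desaturase, was the one called (2.27 ± 0.38).

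Cell type markers differed between these groups as well. The mesothelium sum was 55.6 to 209 CPM in Tbet knockout males, against 292 to 617 CPM in Tbet knockout females, without overlap; 6 of 6 markers had negative values, with a median of -1.70, and 2 were called lower. Of the rest, 1 of 10 adipocyte and 1 of 8 endothelium markers were called higher. The endothelium sum was 1380 to 1730 CPM in Tbet knockout males, against 899 to 1390 CPM in Tbet knockout females, and the adipocyte sum 29700 to 49500 CPM in males, against 33400 to 42100 CPM in females. No macrophage, lymphocyte or epithelium marker was called: macrophage sums were 1260 to 1530 CPM in males, against 1310 to 1830 CPM in females, lymphocyte sums 16.9 to 50 CPM in males, against 34.4 to 78.1 CPM in females, and epithelium sums 10.5 to 436 CPM in males, against 51.6 to 149 CPM in females. Their part in the enzymes' difference was not tested. Without the 8 libraries over 150 CPM of epithelium markers, the Cyp51 call was lost (0.696, adjusted p = 0.17).

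**Figure D4:**
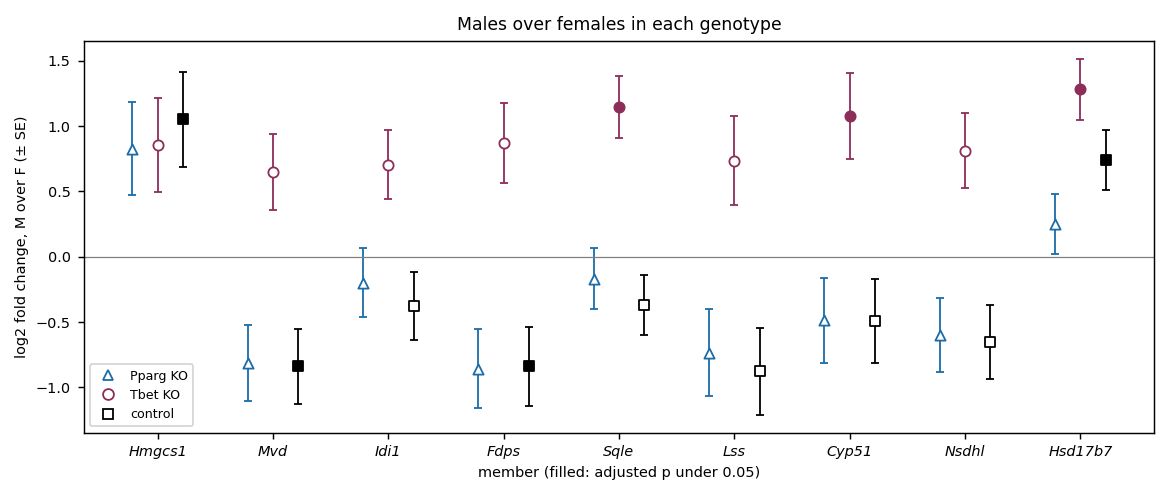
The vertical axis is the log2 fold change of males over females ± SE, the horizontal axis the 9 enzymes; triangles are Pparg knockouts, circles Tbet knockouts, squares controls, and filled symbols have an adjusted p under 0.05. Circles lie above 0 for all 9 enzymes (0.65 to 1.28), while triangles and squares lie below 0 for 7 of 9, all but Hmgcs1 and Hsd17b7.

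The order of the groups put these differences together. Control females had the highest mean for 6 of the 9 enzymes (Mvd, Idi1, Sqle, Lss, Cyp51 and Nsdhl), Pparg knockout females for Fdps, and control males for Hmgcs1 and Hsd17b7. Tbet knockout females had the lowest mean for 8, and the gap to the next group exceeded the larger SD of the 2 groups for 7 of them, Lss being the exception. Among the other neighbours in the order, the gap was within that SD for every enzyme but Fdps, where control females exceeded Tbet knockout males by 1.15 times the larger SD. Hmgcs1 had the 3 male groups first (302 to 362 CPM on average) and the 3 female groups after them (176 to 197 CPM), with no gap above the spread.

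The batches differed for 3 of the 9 enzymes, 2 higher and 1 lower in batch 2, where 51.7% of all genes were called (26.0% higher and 25.7% lower). Hmgcs1 averaged 309 ± 96.1 CPM in batch 2 and 203 ± 110 CPM in batch 1 (SD, n = 12 each; log2 fold change 0.74 ± 0.21, adjusted p = 0.0058). Lss averaged 41.0 ± 14.9 CPM in batch 2 and 27.6 ± 18.9 CPM in batch 1 (0.71 ± 0.20, adjusted p = 0.0048). Mvd averaged 17.1 ± 4.91 CPM in batch 2 and 27.9 ± 16.7 CPM in batch 1 (-0.58 ± 0.17, adjusted p = 0.0069). Leaving out Pparg knockout female replicate 3 gave 6 calls. Of the 13 other pathway enzymes 2 were higher in batch 2 and 9 lower. The batches are balanced over the groups and were a term of the model.

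The log2 CPM of each enzyme was set against the mean of the other 8 across the 24 libraries, which share groups and batches. Nsdhl correlated with that mean at r = 0.94, Cyp51 at 0.92, Idi1 at 0.90, Sqle at 0.89, Lss at 0.82, Fdps at 0.78, Hsd17b7 at 0.67 and Mvd at 0.66. Hmgcs1 was the lowest at 0.08, with a rank correlation (Spearman's rho) of 0.27. Between single enzymes, the r of Hmgcs1 ran from -0.35 to 0.65 and that of Hsd17b7 from 0.25 to 0.70. Of 13340 other genes, those most like the mean of the 9 were Aacs, acetoacetyl-CoA synthetase (r = 0.87), Mindy2, a deubiquitinase (0.87), Tlcd1, a membrane lipid protein (0.84), Acat3, the thiolase (0.83), Mid1ip1, a partner of acetyl-CoA carboxylase (0.82), Mrps22, a mitochondrial ribosomal protein (0.82), Kmt5a, a histone methyltransferase (0.82), and Lactb2, a mitochondrial endoribonuclease (0.82). These correlations are descriptions over 24 libraries of 6 groups.

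The genes lie, on GRCm38, at chr13:119690351-119708260 (Hmgcs1), chr8:122433596-122443422 (Mvd), chr13:8885606-8892396 (Idi1), chr3:89093588-89101967 (Fdps), chr15:59315092-59331193 (Sqle), chr10:76531565-76557139 (Lss), chr5:4080674-4104697 (Cyp51), chrX:72918521-72958528 (Nsdhl) and chr1:169949535-169969242 (Hsd17b7). Mvd overlaps Gm51557, Fdps overlaps Gm22935 and Lss overlaps 4930483K19Rik in the RefSeq annotation, and whether the counting used strand is not given in the sources used here, so reads of these pairs may not be separable.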

How the data were processed

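Raw counts per gene were deposited as 1 table, made by the authors with featureCounts; GRCm38, mm10 and limma are also named, per the submitters' processing notes. No aligner, annotation or version is given in the sources used here. Per the labels' protocols, RNA came from a kit for lipid-rich tissue and libraries from a TruSeq RNA kit. The deposited log2 FPKM values cover 15764 genes. Their median over genes differed by at most 0.0165 between libraries, against 0.607 computed from the counts, so they appear to have been scaled between libraries; they were used for levels between genes and 1 alternative test. Of the 27179 genes, 1029 had no symbol and were kept.

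The counts were fitted with edgeR 4.0.16 in R 4.3.3 after filterByExpr by group and TMM scaling. The robust quasi-likelihood F test used 6 groups plus batch over 24 libraries (17 residual degrees of freedom), in 12 comparisons. A second fit with 12 means of group by batch (12 residual degrees of freedom) tested effects between batches. Adjusted p is Benjamini-Hochberg over 17824 genes, called under 0.05. Log2 CPM used a prior count of 2. Limma 3.58.1 (on the log2 FPKM) and DESeq2 1.42.0 were alternatives. The fits were also run on simulated counts that had the same spread for all genes and no batch effect. That run does not check how they handle the batches or outlying libraries of these data. The common biological coefficient of variation was 0.404.

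The members and lists were chosen with earlier results of these data known. Named were the 9 enzymes, Srebf2, up to 4 called genes of each other list with the smallest adjusted p, and the 8 genes most like the members. Results of some genes this rule covers are not reported here; list counts still include those genes. Whether libraries are from different animals is not stated, and libraries of a group that share a title number across batches may be from the same animal. The p-values therefore reflect only how much the libraries vary, which may be technical. No 2 libraries of a group agreed within sampling noise. Replicate numbers did not pair the libraries of different groups. Depth limits the precision of each count, and reads are not independent molecules.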

Additional observations from a re-analysis of the deposited data

Results flagged for a closer look

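Of 54 sets of 4 libraries (9 enzymes in 6 groups), 3 held a library whose gap to its nearest neighbour was above Dixon's critical share of the range, about as many as the 1 in 20 that chance flags. In Pparg knockout females, Idi1 was 49.0 CPM in replicate 3 against 19.0 to 22.5 CPM in the other 3, and Sqle was 52.2 CPM in the same library against 25.1 to 28.0 CPM. In Pparg knockout males, Sqle was 21.7 CPM in replicate 3 against 32.5 to 33.5 CPM in the others.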

How the results depend on the processing

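The fall of the enzymes in Tbet knockout females kept its direction for the 7 called ones under every setting run. No batch term left 2 calls (Sqle and Nsdhl) and batch 1 alone 2; DESeq2 called 8. Idi1 lost its call with no filter on low counts (adjusted p = 0.059), by limma on log2 FPKM (0.051) and with only the 2 groups (0.104), Cyp51 with no filter (0.051), and Mvd with only the 2 groups (0.053). Leaving out 1 library gave 1 to 8 calls and a median of -1.54 to -1.29. Hmgcs1, never called, changed sign: -0.092 with no batch term, -0.50 in batch 2 alone, -0.051 without the 8 libraries over 150 CPM of epithelium markers (a choice made after seeing the data), and -0.18 to 0.44 over omissions. Tbet against Pparg knockout females gave 7 calls by DESeq2, 1 by limma and 0 to 5 over omissions; the median was -1.82 in batch 1, -0.74 in batch 2 and -1.53 to -0.97 over omissions. In Pparg knockout females the median was 0.38 in batch 1, -0.58 in batch 2 and -0.52 to 0.062 over omissions. Control males against females gave 0 calls with no batch term, 2 in batch 1, 1 in batch 2 and 0 to 6 over omissions, with a batch 1 median of -0.83; Fdps was lost with no filter (adjusted p = 0.059) and by limma (0.058), Hmgcs1 (0.071) and Hsd17b7 (0.057) with only those groups, Hmgcs1 (0.069) and Hsd17b7 (0.055) without the 8 libraries, and Hmgcs1 with the batch of control female replicate 1 taken from its source name (0.055). Pparg knockout males against females gave 2 calls by DESeq2, 2 in batch 1 and 0 to 2 over omissions, and medians of -1.09 in batch 1, 0.23 in batch 2, -0.11 without the 8 libraries and -0.72 to 0.016 over omissions. Tbet knockout males against females gave 5 calls by DESeq2, 0 in batch 1, 5 in batch 2, 6 with only those groups and 2 to 6 over omissions; Cyp51 was lost with no filter (adjusted p = 0.059) and by limma (0.051). The sex difference of the Pparg effect had medians of -0.40 in batch 1, 0.59 in batch 2, 0.55 without the 8 libraries and -0.20 to 0.52 over omissions; that of the Tbet effect gave 5 calls by DESeq2, 2 with only those groups and 0 to 1 over omissions. Batch gave 3 to 6 calls over omissions. For the knockout effect in batch 2 minus batch 1, omissions gave 0 to 1 call and medians of -1.37 to -0.44 for Pparg females, -0.48 to 0.16 for Tbet females and -0.56 to 0.39 for Tbet males. The cause of these shifts was not tested, and shares of all genes called were not computed under these settings.

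With a replicate block in place of batch, 11 of 11 counts stayed within 1.5 times. In Tbet knockout females 6 enzymes were called, Cyp51 being lost (-1.43, adjusted p = 0.053). Fdps between control sexes (-0.80, adjusted p = 0.061) and Cyp51 between Tbet knockout sexes (1.04, adjusted p = 0.061) were lost too. After removing group and batch, residuals of libraries with the same replicate number in different groups correlated at -0.74 to 0.50. Replicate numbers were therefore not taken as pairs between groups. Depth was least in Tbet knockout female replicates 2 and 4, both of batch 2, at 8345575 and 9463144 counts. Replicates 1 and 3 of that group, of batch 1, had 23222868 and 25882749 counts.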
